A study of Mus musculus with 4 samples.

Results

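Cells that enter mitosis switch on a block of genes late in the cell cycle, and 60 of these genes are described here in T helper 17 (Th17) cells labelled as wild type or as a conditional knockout of the phosphatase PP2A. The genes were listed by name and grouped by what their proteins do: cyclins and the CDC25 phosphatases, mitotic kinases, the spindle checkpoint and the anaphase-promoting complex (APC/C), centromere and kinetochore, kinesin motors, the chromosomal passenger complex, spindle assembly, cytokinesis, condensin and topoisomerase, cohesion and separase, transcription factors, and the markers Mki67 and Cdca3. All 60 names were found among the 52636 genes of the deposited table, and all 60 were among the 10562 genes tested, that is, with 1 FPKM or more on average. FPKM are fragments scaled by gene length and library size, so levels can be compared between genes.

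Mitotic entry is driven by CDK1 bound to cyclin A or cyclin B and by the Aurora and Polo-like kinases, and mitotic exit by the APC/C, which marks cyclin B and securin for destruction. PP2A is a main phosphatase that opposes these kinases: it removes CDK1 phosphates at mitotic exit and protects centromeric cohesion. Many genes of this kind are transcribed late in the cycle through the MuvB complex, which binds an element called CHR. The complex works with B-MYB (Mybl2) and FOXM1, together with NF-Y at CCAAT boxes. T cells leave quiescence and divide repeatedly in the first days after activation, so cultures of this kind contain cycling cells.

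The study compared 2 libraries of the genotype labelled PP2A WT with 2 of the genotype labelled PP2A cKO (conditional knockout), all from C57BL/6 mice, to address the part PP2A plays in Th17 differentiation. In both genotypes, naive T cells were polarized for 2 days beside autologous antigen-presenting cells that had been irradiated, 3 for each T cell, with IL-6 at 20 ng/ml, TGFβ1 at 2 ng/ml, antibodies to CD28 and CD3 at 2 µg/ml and blocking antibodies to IFNγ and IL-4 at 10 µg/ml. Restimulation was with ionomycin at 500 ng/ml and PMA at 50 ng/ml for 4 h, so every value is from restimulated cells. The labels name neither the PP2A subunit that was deleted nor what drove the deletion, so the loss of PP2A was not checked in these libraries. They also do not say whether the replicates came from separate mice or cultures. Any p-value therefore measures the spread between these libraries, which may be technical.

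The libraries held between 18517487 and 20387948 reads assigned to genes. T cell markers (8 genes) lay between 17.8 and 675 FPKM, and Th17 markers (5 genes, Il17a and Il17f among them) between 15.5 and 3318 FPKM. The T cell markers summed to 1127 and 1070 FPKM in WT against 1439 and 1560 in cKO, and the Th17 markers to 4148 and 3808 against 3018 and 2912. Among the T cell markers Cd5 had the largest difference, with 378 and 318 FPKM in WT and 561 and 675 in cKO. Cd2, Cd3d, Cd3g, Cd4 and Lck were also higher in both cKO libraries, Cd3e was lower in both, and Thy1 overlapped. Of 16 B cell, myeloid and dendritic markers, which stand for the irradiated cells, 1 (Siglech) was at 0 in all 4 libraries, the highest reached 0.799 FPKM, and their sums were 1.66 and 1.69 FPKM in WT and 1.57 in both cKO libraries. The CD8 markers Cd8a and Cd8b1 summed to 7.61 and 8.24 FPKM in WT and 9.28 and 10.2 in cKO. The difference came from Cd8b1, with 7.06 and 7.91 FPKM in WT and 9.03 and 9.84 in cKO. The groups of Cd8a overlapped, at 0.548 and 0.331 FPKM in WT and 0.257 and 0.340 in cKO. The part of the T cell marker and Cd8b1 differences in the results on mitotic genes was not tested.

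Transcripts of the mitotic genes were lower in cKO cells across almost the whole list. Both cKO libraries lay under both WT libraries for 58 of the 60 genes, against 28.7% of all genes tested. The exceptions were Pttg1, which lay higher in cKO, and Cenpm, whose groups overlapped. The list was chosen with earlier results of these data known, and the part of that choice in these counts was not tested. In the median, a gene stood at 66.0% of its WT level, and the median log2 fold change of FPKM + 1 (cKO minus WT) was -0.55, with the middle 50% of genes between -0.66 and -0.43, while the median over all genes tested was -0.003. Taken one at a time, the cKO libraries gave medians of -0.55 and -0.56 against the WT mean.

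Of the 60 genes, 6 fell in cKO at an adjusted p under the threshold of 0.05 (limma, adjusted over all genes tested), and none rose. They were Mybl2, Haus4, Ccna2, Haspin, Hmmr and Kif23. Over all genes tested, 0.256% fell and 0.814% rose by the same rule. A further 10 of the 60 genes had an adjusted p between 0.05 and 0.06, and at an unadjusted p under 0.05 the counts were 55 lower and 1 higher, against 10.3% and 9.56% of all genes tested. How many genes passed depended on the test. Modelling the recovered reads with limma's voom called 39 of the 60 lower (2.49% of all genes tested), and correcting each library for transcript GC content called 43 (2.24%). Without cKO replicate 1, 27 genes were called lower (1.08% of all), and without cKO replicate 2, 50 (15.3% of all), with the 6 among them in both cases. Without WT replicate 1, or without WT replicate 2, none was called lower. Respectively, 44 and 35 genes had an unadjusted p under 0.05 in the lower direction, against 4.53% and 3.65% of all genes tested. In each of these omissions the genotype left with 1 library is assumed to vary like the other.

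As one sum, the 60 genes took 0.680% and 0.706% of the reads assigned to genes in WT, and 0.454% and 0.457% in cKO, or 0.693% ± 0.0180 and 0.455% ± 0.00213 (SD, n = 2 each). The cKO share was 65.7% of the WT share and the groups did not overlap, although an exact two-sided permutation test of 2 against 2 libraries cannot give a p under 0.33. These are averages over whole cultures, in which fewer cells in the late cell cycle and less mitotic RNA per cell cannot be told apart.

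**Figure D1:**
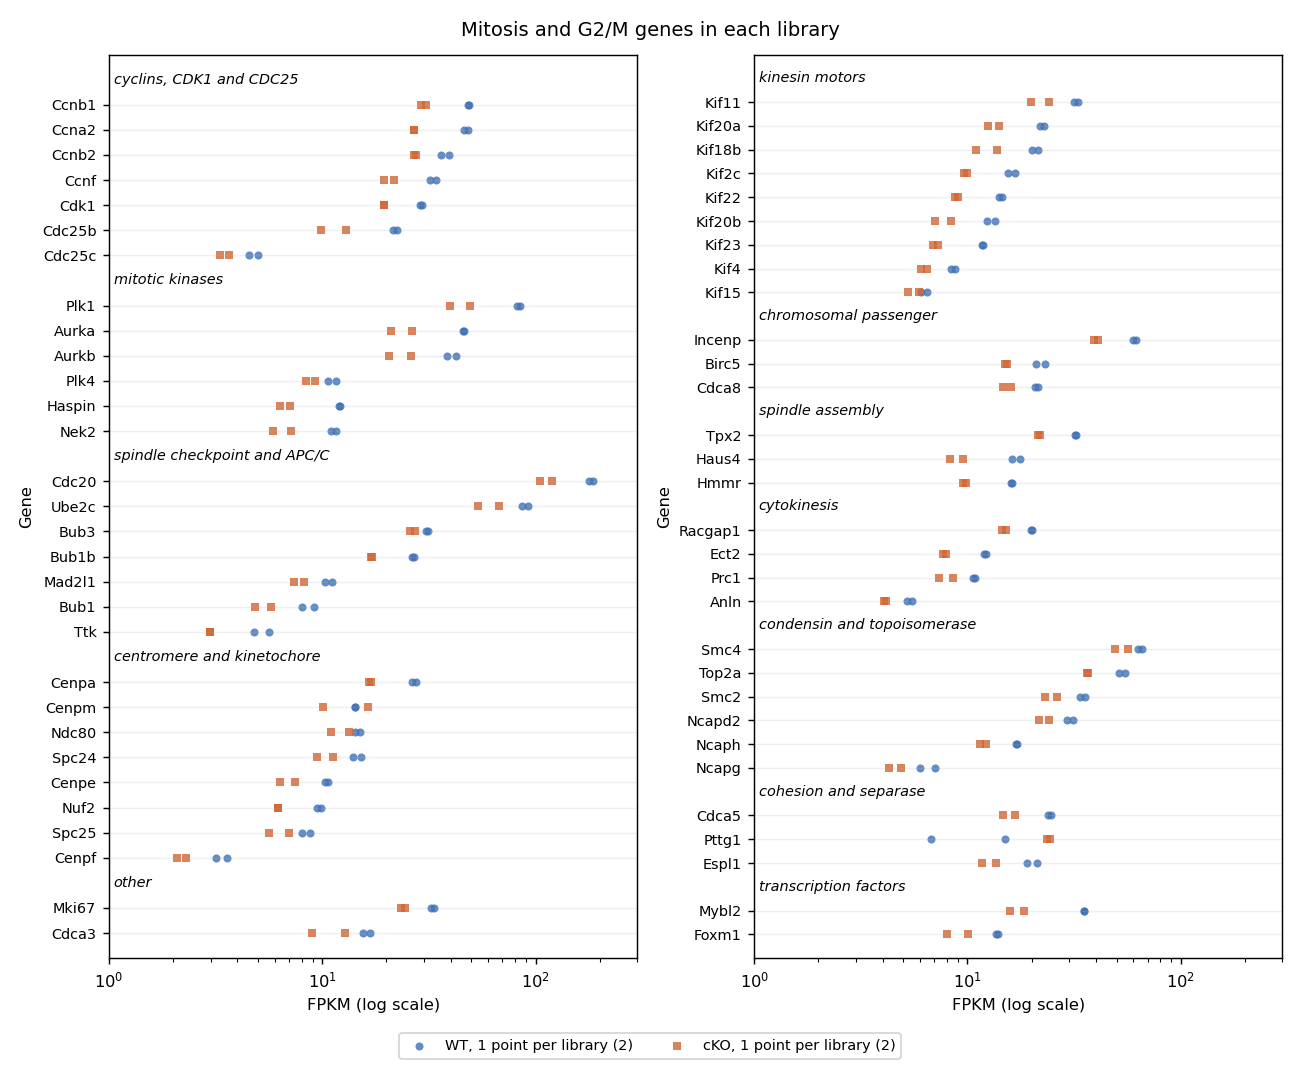
FPKM (log scale) of each of the 60 genes, grouped by function, with 1 point per library for 2 WT and 2 cKO libraries. The cKO squares lie left of the WT circles for 58 genes, with Pttg1 on the opposite side and Cenpm overlapping.

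**Figure D2:**
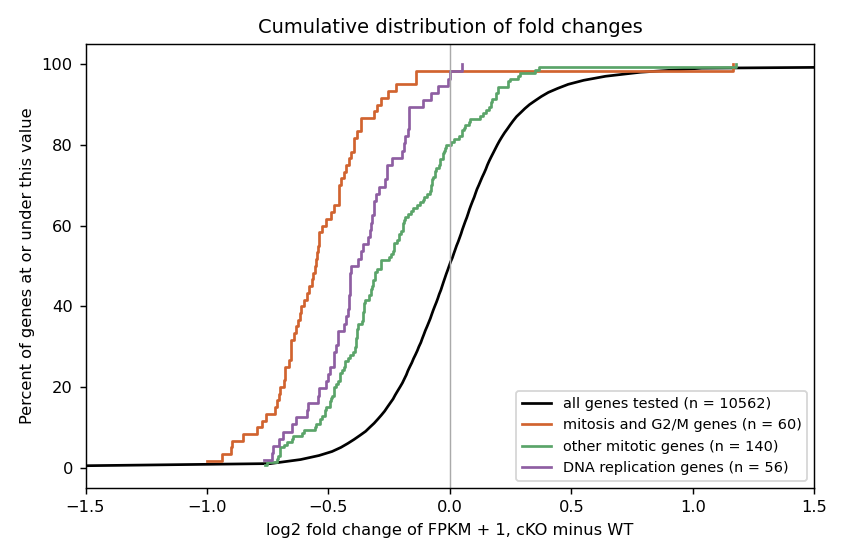
Cumulative share of genes (percent) by log2 fold change of FPKM + 1, cKO minus WT, for all 10562 genes tested, the 60 mitosis and G2/M genes, 140 other mitotic genes and 56 DNA replication genes. The curve of the 60 genes lies farthest to the left, with its median at -0.55.

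Promoters are printed here because the genes were low together and because many of them carry the elements known from late cell cycle genes. RefSeq promoter windows (GRCm38.p6, 250 bases before to 50 after the transcription start) matched 51 of the 60 genes by symbol, with 54 windows. The 5 shown run from 150 bases before to 30 after the start, 5′ to 3′ on the gene's strand, and are those of the fallen genes Hmmr, Kif23, Haspin and Mybl2 and of Ccnb1, the cyclin with the highest level. Capitals mark the CHR core TTTGAA, its variant TTTAAA and the CCAAT box, each on either strand, so that ATTGG is a CCAAT box on the opposite strand.
Hmmr (chr11:40733408-40733587, minus strand): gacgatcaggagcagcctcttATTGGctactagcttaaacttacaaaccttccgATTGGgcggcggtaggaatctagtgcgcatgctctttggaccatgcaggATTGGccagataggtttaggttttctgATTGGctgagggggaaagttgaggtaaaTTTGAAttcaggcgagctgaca
Kif23 (chr9:61946770-61946949, minus strand): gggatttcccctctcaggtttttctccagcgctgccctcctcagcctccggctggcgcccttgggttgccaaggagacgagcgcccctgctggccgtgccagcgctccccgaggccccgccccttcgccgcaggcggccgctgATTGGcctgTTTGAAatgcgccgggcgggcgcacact
Haspin (chr11:73138265-73138444, minus strand): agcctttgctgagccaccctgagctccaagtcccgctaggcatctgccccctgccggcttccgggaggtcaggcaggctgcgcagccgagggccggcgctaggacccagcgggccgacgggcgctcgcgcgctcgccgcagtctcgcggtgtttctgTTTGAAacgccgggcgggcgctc
Ccnb1 (chr13:100786457-100786636, minus strand): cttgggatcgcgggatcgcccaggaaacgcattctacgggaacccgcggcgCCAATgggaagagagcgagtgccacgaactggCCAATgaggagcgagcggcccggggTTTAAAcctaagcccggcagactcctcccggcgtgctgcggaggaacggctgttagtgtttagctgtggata
Mybl2 (chr2:163054485-163054664, plus strand): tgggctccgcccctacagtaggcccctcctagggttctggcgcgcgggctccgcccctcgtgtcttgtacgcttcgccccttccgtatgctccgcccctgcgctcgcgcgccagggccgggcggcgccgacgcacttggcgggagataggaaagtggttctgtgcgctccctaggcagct

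Hmmr, Kif23 and Haspin each held TTTGAA just after the start, with the first base at position 9, 3 and 8, counting the start itself as 1. In Hmmr it lay downstream of CCAAT boxes at -129, -96, -47 and -20, and in Kif23 of one at -7. Ccnb1 held the variant TTTAAA at -42, with CCAAT boxes at -99 and -67 before it. Mybl2, which fell most, held none of these 3 elements in its window, and Haus4, another fallen gene, held a CCAAT box and no CHR.

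Across the list, TTTGAA occurred in 40 of the 54 windows (74.1%), against 17.9% of all 32851 promoter windows and 11.8% of the 9390 windows of genes tested. Windows of other mitotic genes held it in 25.9% of cases, and those of DNA replication genes in 14.3%. Among the lists compared, its share was highest in these promoters. Matches were to the exact letters on either strand, so sites with other letters were not counted, and different motifs could overlap. The CCAAT box also occurred in 74.1% of the 54 windows, against 37.4% of all windows and 37.9% of those of genes tested. TTTGAA and the CCAAT box occurred together in 61.1% of the members' windows, 6.95% of all windows and 4.86% of those of genes tested. The GC box, the TATA box and the E2F site were counted in the same way. The GC box GGGCGG was in 75.9%, against 35.7% of all windows and 65.1% of those of genes tested. The TATA box TATAAA was in 1.85%, against 13.6% and 6.47%. The E2F site TTTCCCGC, known from genes of the G1/S phase, was in 3.70%, against 1.07% and 2.18%. Windows of replication genes held it in 14.3% of cases. Other forms of the E2F site were not counted, in Mybl2 or elsewhere, so these shares do not cover all such sites.

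The CHR matches sat close to the start. Of 53 matches in these promoters, 73.6% began within 50 bases of the start, against 25.3% of the matches in all promoters. The first 50 bases after the start held a match in 40.7% of the windows, against 2.25% of all windows. CCAAT boxes lay mostly upstream of that. Between 100 and 50 bases before the start, 38.9% of windows held one, against 12.5% of all windows. In the last 50 bases before the start 44.4% did, against 9.03%. Of the CCAAT matches themselves, 32.2% began within 50 bases of the start, against 28.2% in all promoters. A match is a description of letters. The median log2 fold change was -0.55 both in the 37 genes with TTTGAA and in the 14 without. Those 14 included Mybl2 and Haus4 as well as Pttg1 and Cenpm. They also included Birc5, Ccnb1, Cenpe and Plk4, which held the variant TTTAAA. The variant was in 18.5% of the members' windows, 13.2% of all windows and 8.87% of those of genes tested.

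**Figure D3:**
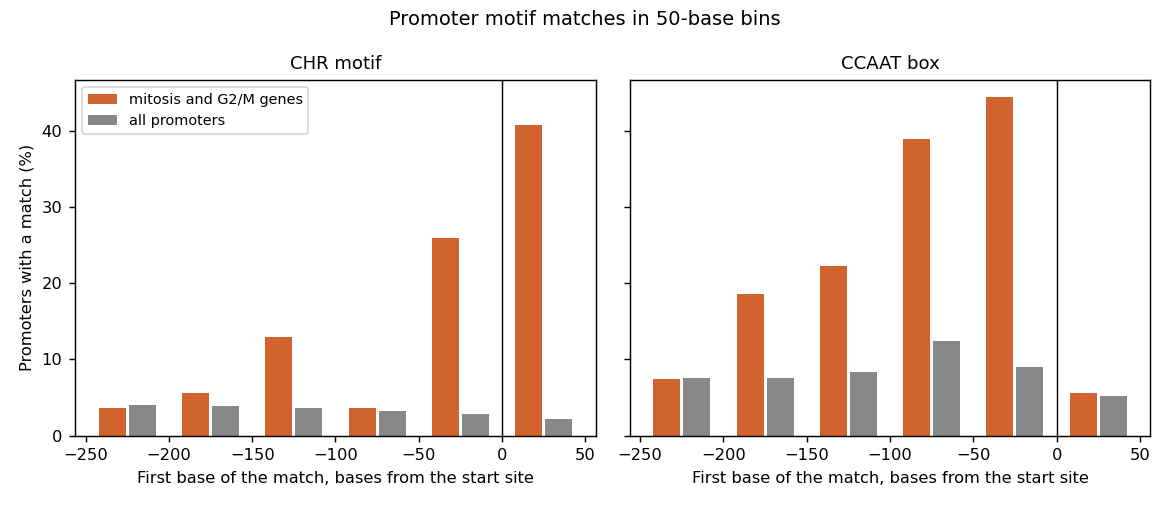
Percent of promoter windows with a match to the CHR core (left) or the CCAAT box (right) in 50-base bins, by position of the first base of the match from the transcription start, for 54 windows of the mitosis and G2/M genes and 32851 windows of all genes. CHR matches peak at 40.7% in the first 50 bases after the start, CCAAT boxes at 44.4% in the 50 bases before it.

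The transcription factors of the programme were both low. Mybl2 (chr2:163054687-163084688, GRCm38) encodes B-MYB, which joins the MuvB complex to switch on G2/M genes. It measured 35.2 FPKM in both WT libraries, and in cKO 15.8 and 18.4 FPKM. This was the lowest cKO level relative to WT among the 60 genes, 48.6%, a log2 fold change of -1.0 ± 0.11 (SE, adjusted p = 0.0367). Foxm1, which takes over from B-MYB on the same promoters, measured 14.0 and 13.6 FPKM in WT and 8.01 and 10.1 in cKO. Its groups were apart, but its log2 fold change of -0.57 did not pass (adjusted p = 0.0993).

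Among the cyclins, CDK1 and the CDC25 phosphatases, 1 of 7 genes fell. All 7 had both cKO libraries under both WT libraries, with a median log2 fold change of -0.66. Over all genes tested these rules gave 0.256% and 28.7%, and the same counts in the groups that follow are read against these shares. The gene that fell was Ccna2 (chr3:36564865-36572150), which encodes cyclin A2, the partner of CDK2 and then CDK1 from S phase into early mitosis. It measured 46.3 and 48.4 FPKM in WT and 26.9 FPKM in both cKO libraries (log2 fold change -0.79 ± 0.09 SE, adjusted p = 0.0391). Ccnb1, the mitotic cyclin of CDK1, measured 48.2 and 48.6 FPKM in WT and 30.5 and 29.1 in cKO. Its WT libraries were nearly equal, and its adjusted p of 0.0504 lay just above the threshold of 0.05, so it did not pass. Cdc25b, a phosphatase that activates CDK1, had the lowest fold change of the group, with 21.5 and 22.4 FPKM in WT and 9.88 and 12.9 in cKO (-0.90, adjusted p = 0.0607). Cdc25c, which acts on the same step, had the smallest difference, with 4.53 and 5.02 FPKM in WT and 3.30 and 3.67 in cKO (-0.37, adjusted p = 0.147). Cdk1 itself stood at 67.1% of its WT level, with 29.3 and 28.8 FPKM in WT and 19.6 and 19.4 in cKO (adjusted p = 0.0607).

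The mitotic kinases had the next lowest median of the groups, -0.77, after the transcription factors. Of the 6, Haspin fell and the other 5 did not pass. Haspin (chr11:73135485-73138294), which phosphorylates histone H3 and so brings the passenger complex to centromeres, measured 12.1 and 11.9 FPKM in WT and 6.32 and 7.06 in cKO (-0.76 ± 0.09 SE, adjusted p = 0.0456). Its whole gene lies inside Itgae on the opposite strand, and Itgae stood at 0.180 to 0.335 FPKM in the 4 libraries. Plk1, the Polo-like kinase that acts at entry, centrosomes and cytokinesis, measured 82.1 and 84.6 FPKM in WT and 39.5 and 49.5 in cKO. Aurka, the centrosomal Aurora kinase, had 46.2 and 45.5 FPKM in WT and 21.0 and 26.3 in cKO. Both had larger fold changes than Haspin, -0.90 and -0.94, with adjusted p of 0.0572 and 0.0530, and in both the cKO libraries lay farther apart than the WT libraries. Plk4, which starts centriole duplication and not mitosis itself, had the smallest difference, with 11.6 and 10.6 FPKM in WT against 9.28 and 8.35 in cKO (-0.30, adjusted p = 0.198).

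None of the 7 spindle checkpoint and APC/C genes passed, and all 7 had cKO under WT, with a median of -0.61. At an unadjusted p under 0.05, 6 were lower, and voom called 4. Over all genes tested these rules called 10.3% and 2.49% lower, and the counts of the other groups are read against the same shares. Cdc20, the APC/C activator that the checkpoint holds in check, was the most abundant of all 60 genes. It measured 187 and 178 FPKM in WT and 105 and 120 in cKO, 61.4% of WT (-0.70, adjusted p = 0.0636). Bub3, a checkpoint protein, lay at the other end with 31.2 and 30.8 FPKM in WT and 27.1 and 25.7 in cKO (-0.22, adjusted p = 0.265). Bub1b, which encodes the checkpoint protein BUBR1, a binding partner of PP2A at kinetochores, measured 26.8 and 26.3 FPKM in WT and 16.8 and 17.2 in cKO (-0.62, adjusted p = 0.0541).

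The centromere and kinetochore genes had a smaller median, -0.46, and none of the 8 passed, with 6 lower at an unadjusted p under 0.05 and 4 called by voom. Cenpa, the histone H3 variant that marks centromeres, measured 26.2 and 27.6 FPKM in WT and 16.6 and 16.8 in cKO (-0.65, adjusted p = 0.0504). The groups were well apart for this gene. Cenpm, a subunit of the inner kinetochore, measured 14.2 and 14.3 FPKM in WT but 10.0 in cKO replicate 1 and 16.3 in cKO replicate 2 (-0.14, adjusted p = 0.739). Its cKO libraries lay on either side of WT, and without cKO replicate 1 its log2 fold change was 0.18. Of the outer kinetochore complex that holds microtubules, Nuf2 stood at 64.1% of WT, Spc24 at 71.2%, Spc25 at 75.2% and Ndc80 at 83.0%.

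Among the 9 kinesin motors, 1 fell, and cKO lay under WT in all 9, with a median of -0.66. Kif23 (chr9:61915905-61946774), the motor subunit of centralspindlin in the midzone, measured 11.9 and 11.7 FPKM in WT and 7.25 and 6.91 in cKO (-0.66 ± 0.08 SE, adjusted p = 0.0489). Kif11, the motor that pushes spindle poles apart, was the most abundant, with 31.7 and 33.1 FPKM in WT and 24.0 and 19.9 in cKO (-0.55, adjusted p = 0.0979). Kif18b, which trims microtubule plus ends, had the lowest fold change, with 21.4 and 20.1 FPKM in WT and 10.9 and 13.8 in cKO (-0.71, adjusted p = 0.0757). This was a larger difference than that of Kif23, with cKO libraries farther apart. Kif15, a motor that can stand in for Kif11, had almost touching groups of 6.07 and 6.47 FPKM in WT and 5.95 and 5.25 in cKO (-0.14, adjusted p = 0.459).

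Of the 3 spindle assembly genes, 2 fell, and both act in building the spindle around chromosomes and centrosomes. Haus4 (chr14:54541785-54554361), a subunit of the augmin complex that branches new microtubules from old ones, measured 16.1 and 17.6 FPKM in WT and 8.28 and 9.52 in cKO. Its level in cKO was 52.8% of WT (-0.85 ± 0.11 SE, adjusted p = 0.0475). Hmmr (chr11:40701395-40733422), a spindle pole protein also known as a hyaluronan receptor, measured 16.1 and 16.0 FPKM in WT and 9.82 and 9.53 in cKO (-0.68 ± 0.08 SE, adjusted p = 0.0458). Replicates of Hmmr agreed closely in both genotypes. Tpx2, which activates Aurora A on microtubules, was the third gene of the group, with 31.9 and 32.4 FPKM in WT and 21.9 and 21.5 in cKO (-0.55, adjusted p = 0.0620).

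The chromosomal passenger complex senses and corrects wrong attachments of chromosomes to the spindle. None of its 3 genes passed, although all 3 had an unadjusted p under 0.05 and voom called 2. Incenp, its scaffold, measured 59.6 and 61.8 FPKM in WT and 39.3 and 40.7 in cKO (-0.59, adjusted p = 0.0607), and Cdca8 (borealin) 20.8 and 21.3 FPKM in WT and 16.0 and 14.7 in cKO (-0.43, adjusted p = 0.0932). Birc5 (survivin) stood at 68.9% of WT. The 4 cytokinesis genes had the smallest median of the groups, -0.40, and none passed, with all 4 lower at an unadjusted p under 0.05 and 1 called by voom. Ect2, the exchange factor that activates RhoA at the cleavage furrow, had 12.2 and 12.0 FPKM in WT and 7.89 and 7.65 in cKO (-0.58, adjusted p = 0.0550). Racgap1, the partner of Kif23 in centralspindlin, measured 19.8 and 20.2 FPKM in WT and 14.6 and 15.1 in cKO (-0.41, adjusted p = 0.0924). Anln, an actin-binding protein of the contractile ring, had 5.22 and 5.48 FPKM in WT and 4.16 and 4.06 in cKO (-0.31, adjusted p = 0.147).

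The 6 condensin and topoisomerase genes had a median of -0.45 with cKO under WT in all 6. None passed, while all 6 were lower at an unadjusted p under 0.05 and voom called 3. Top2a, which untangles sister chromatids, measured 51.4 and 54.9 FPKM in WT and 36.8 and 36.4 in cKO (-0.53, adjusted p = 0.0723). Smc4, the condensin ATPase with the highest level, measured 62.9 and 66.0 FPKM in WT and 56.4 and 49.3 in cKO (-0.28, adjusted p = 0.248). Its partner Smc2 stood at 71.0% of WT and Smc4 at 82.0%. Mki67, the proliferation marker that coats mitotic chromosomes, measured 33.5 and 32.4 FPKM in WT and 24.5 and 23.3 in cKO (-0.45, adjusted p = 0.0860). Cdca3, a trigger of mitotic entry, had 15.5 and 16.7 FPKM in WT and 8.98 and 12.8 in cKO, with cKO libraries well apart (-0.54, adjusted p = 0.184).

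In the cohesion and separase group none of the 3 genes passed, 2 were lower at an unadjusted p under 0.05 and by voom, and 1 lay on the other side of WT. Cdca5 (sororin), which stabilizes cohesin, measured 24.6 and 23.9 FPKM in WT and 14.7 and 16.7 in cKO (-0.60, adjusted p = 0.0693). Espl1, the separase that cuts cohesin at anaphase, measured 21.3 and 19.0 FPKM in WT and 11.7 and 13.7 in cKO (-0.63, adjusted p = 0.0748). Pttg1 (chr11:43420250-43426251) encodes securin, the inhibitor of separase. It measured 15.0 FPKM in WT replicate 1 and 6.78 in WT replicate 2, but 23.6 and 24.4 FPKM in cKO. The WT libraries differed more than 2-fold, from 588 and 259 reads, while the cKO libraries held 958 and 948. Its log2 fold change of 1.16 ± 0.34 (SE) did not pass (adjusted p = 0.157). Without WT replicate 1 it was 1.68 with an adjusted p of 0.0204, and without WT replicate 2 it was 0.64 with an adjusted p of 0.370. Inhibitor and protease thus stood on opposite sides of WT in these libraries, and the difference between them was not tested.

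**Figure D4:**
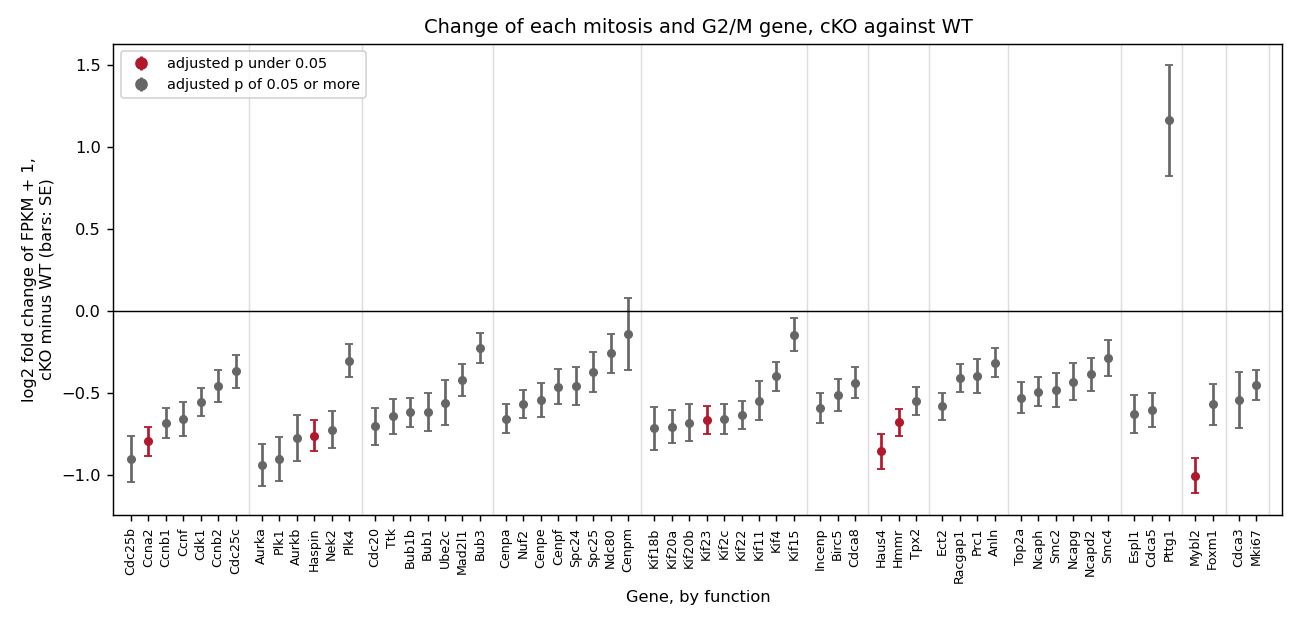
Log2 fold change of FPKM + 1 (cKO minus WT, with its standard error) for the 60 genes by function, with genes past an adjusted p of 0.05 marked. All but Pttg1 lie under 0, and the 6 marked genes lie between -0.66 and -1.0.

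Other genes of mitosis that are not on the list had smaller differences in the median. Both cKO libraries lay under both WT libraries for 93 of 140 further mitotic genes tested (66.4%, against 28.7% of all genes tested). The median log2 fold change of the 140 was -0.28. At an unadjusted p under 0.05 (limma), 66 were lower, against 10.3% of all genes tested. By the adjusted threshold 2 of the 140 fell and 1 rose, against 0.256% and 0.814% of all genes tested. The count that rose is close to its share. Those that fell were Cep55, an organizer of the cytokinetic bridge, with 23.8 and 25.2 FPKM in WT and 15.0 and 14.3 in cKO (-0.71, adjusted p = 0.0489), and Cdca2, a chromatin targeting subunit of another phosphatase, PP1, with 9.72 and 9.27 FPKM in WT and 5.72 and 5.48 in cKO (-0.67, adjusted p = 0.0489). Psrc1, a microtubule-binding protein that is also a p53 target, rose, from 1.44 and 1.57 FPKM in WT to 4.42 and 4.94 in cKO (1.18, adjusted p = 0.0270). Wee1, the kinase that opposes CDC25 at CDK1, had the lowest fold change of these genes, with 17.4 and 17.0 FPKM in WT and 8.22 and 11.4 in cKO (-0.76, adjusted p = 0.0904). Thus an activator of CDK1 on the list (Cdc25b) and an inhibitor off it (Wee1) both lay low.

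DNA replication genes, the group of the preceding cell cycle phase, also lay low. Of 56 tested, none passed (limma), and 40 had an unadjusted p under 0.05 in the lower direction, against 10.3% of all genes tested. Voom called 13 lower, against 2.49% of all genes tested. Of the 56, 49 had cKO under WT (87.5%, against 28.7% of all genes tested), and the median of the 56 was -0.39. Their lowest member was Mcm2, a subunit of the replicative helicase, at 54.4 and 55.0 FPKM in WT and 29.1 and 34.8 in cKO (-0.76, adjusted p = 0.0607). The highest was Orc4, of the origin recognition complex, at 0.05. As summed shares of reads, cKO stood at 71.2% of WT for the replication genes, 83.0% for the other mitotic genes and 65.7% for the 60 genes. The difference between the lists was not tested.

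Levels among the 60 genes ran from a mean of 2.78 FPKM (Cenpf) to 147 FPKM (Cdc20), and reads per gene and library from 130 to 9458. Spearman's rho between level and fold change was -0.24 across the 60 genes, which share the same 4 libraries. The genes lie on 17 chromosomes, with 9 on chromosome 2 and 7 on chromosome 11. Of the 60, 17 share exon bases with another annotated gene, 13 of them with a gene on the opposite strand. Reads of such pairs cannot be told apart, since the sources used here do not give the strand setting of the counting. The overlap exceeded 10% of the member's exon bases for 7 genes: 29.3% for Kif20a with Cdc23, 22.8% for Ube2c with Tnnc2, 15.1% for Kif4 with Pdzd11, 13.4% for Ncapg with Lcorl, 12.7% for Cdc25c with Gm3550, 12.5% for Ccna2 with Exosc9 and 11.1% for Prc1 with Rccd1. Of the 6 genes that fell, Ccna2 alone shares exon bases.

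The cKO libraries differed from each other with base composition. Transcript GC content had a median of 47.8% in the 60 genes (34.8% to 56.3%) and 49.6% in all genes tested. In cKO replicate 1 the difference from the WT mean was larger in GC-rich members (rho = -0.64 across the 60 genes), whereas in cKO replicate 2 it hardly followed GC content (rho = -0.11). The difference between the cKO libraries followed it more closely still (rho = -0.76), and that between the WT libraries less (rho = 0.22). Plk1, Aurka, Cdc25b and Mybl2 were lower in cKO replicate 1 than in cKO replicate 2, and Kif11, Smc4 and Ndc80 higher. Cenpm, in which the cKO libraries lay on either side of WT, has 55.9% GC, near the top of the range. Of the 60 genes, 29 were lower in cKO replicate 1 than in cKO replicate 2 and 31 higher. After correction for GC content, 43 of the 60 genes were called lower in cKO, against 2.24% of all genes tested. In the same limma fit Plk1 had an adjusted p of 0.0227, Aurka of 0.0295 and Ccnb1 of 0.0221.

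**Figure D5:**
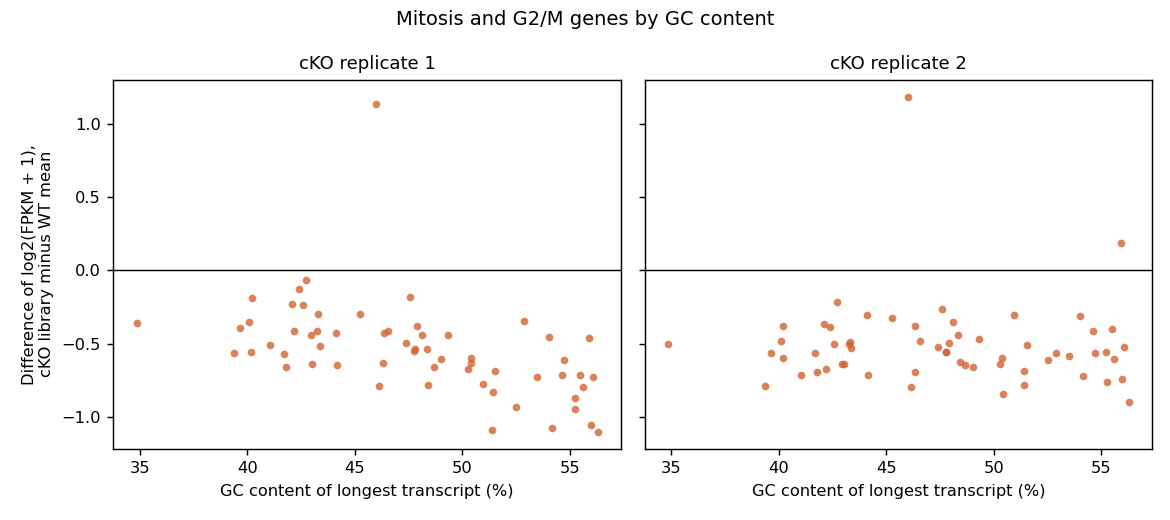
Difference of log2(FPKM + 1) between each cKO library and the WT mean against the GC content (percent) of the longest transcript, 1 point per gene for the 60 genes. Points slope downward with GC content for cKO replicate 1 (rho = -0.64) and lie nearly level for cKO replicate 2 (rho = -0.11).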

How the data were processed

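RNA was sequenced from 2 PP2A WT and 2 PP2A cKO libraries of mouse Th17 cells, with NEBNext Ultra chemistry per the labels' protocols. The authors deposited FPKM per gene with gene length. The submitters' processing notes name featureCounts 1.5.0-p3 for counting, and GRCm38 and mm10 as builds. Which aligner, annotation release, strand setting and FPKM tool they used is not given in the sources used here.

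FPKM times gene length was a whole number of equal steps, 1 step size in each library, for 100% of nonzero values (tolerance 0.01 read), which recovered the reads. Genes averaging 1 FPKM or more were tested on log2(FPKM + 1) with limma 3.58.1 (R 4.3.3), a pseudocount of 1, which understates changes of low genes. The contrast was cKO minus WT, two-sided, with a variance trend, no block and Benjamini-Hochberg adjustment over all 10562 genes at 0.05. No count model entered the main result. The script was tested on simulated data. Transcript GC content (longest transcript) and exon overlaps came from GENCODE M21, which held 99.6% of the gene IDs. 53 of the 60 genes had the same coordinates there. Promoters came from RefSeq.

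Members and lists were chosen with earlier results of these data known. Named were genes past the threshold and, per functional group, those with the highest level and the lowest and highest fold change. A few more were added to describe their group. Alternatives covered the pseudocount, the filter, scaling, variance model, replicate block, GC correction, voom with TMM scaling, and each library left out.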

Additional observations from a re-analysis of the deposited data

How the results depend on the processing

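Of the 60 genes, the number called lower was 6 as reported, and 2 with a pseudocount of 0.1, 0 with no filter on low values, 13 with a filter of 5 FPKM (56 genes tested), 3 after quantile normalization, 2 without the variance trend, 43 after GC correction, 20 after GC correction with the replicate block and 39 with voom on recovered reads. With no filter, no gene of the whole table passed, 55 of the 60 had an unadjusted p under 0.05 in the lower direction (6.74% of all), and more low genes (21807 tested) entered the adjustment. Leaving out 1 library gave 0 to 50, the 0 without either WT library. The count of genes higher was 0 except without WT replicate 1, when Pttg1 passed, so omissions gave 0 to 1. The median log2 fold change was -0.60 with a pseudocount of 0.1 and -0.60 with voom. Of all genes tested, 0.256% were called lower as reported, 0.142% with a pseudocount of 0.1 and 0.476% with a filter of 5 FPKM. The share was 0.199% after quantile normalization, 0.189% without the variance trend and 0.218% with robust variance. With the replicate block it was 0.691%, after GC correction 2.24%, after both 0.824% and with voom 2.49%. Counts of the other lists below are read against the same shares. 

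Other mitotic genes called lower numbered 2 as reported, 0 with a pseudocount of 0.1 and 0 with no filter. They numbered 4 with a filter of 5 FPKM, 0 after quantile normalization, 0 without the variance trend and 0 with robust variance. With the replicate block 5 were called lower, after GC correction 23, after both 6 and with voom 26. Replication genes numbered 0 as reported, and 1 with a filter of 5 FPKM, 1 with the replicate block, 14 after GC correction, 2 after GC correction with the replicate block and 13 with voom, with 0 to 30 when 1 library was left out. Over all genes tested, 86 were higher and 27 lower (76.1% higher), against 283 and 237 (54.4%) after GC correction, 284 and 263 (51.9%) with voom, 63 and 33 (65.6%) with a filter of 5 FPKM, and 1390 and 1614 without cKO replicate 2. One direction reversed: leaving out cKO replicate 1 gave Cenpm a log2 fold change of 0.18, and leaving out cKO replicate 2 gave -0.46. The causes of these shifts were not tested.

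The replicate numbers pair the libraries by number only: same-numbered deviations correlated at -0.093. With the replicate block, 7 of the 60 genes were called lower, 4 of them among the 6, without Hmmr and Kif23. The planned quasi-likelihood count model on the recovered reads was not run. With 2 libraries per genotype, calls rest on the variance shared across genes.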
